A study of Arabidopsis thaliana with 4 samples.

Results

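Cytochrome P450 genes were followed in *Arabidopsis thaliana* seedlings given the auxin indole-3-acetic acid (IAA). Genes were taken by symbol: CYP with a family number that begins with 7, 8 or 9 and, where present, a subfamily letter and gene number, without *CYP72C1*. The rule gave 37 genes, each read by 1 probe set, among 22746 probe sets tested. One of them, *CYP71* (AT3G44600), is annotated as cyclophilin 71, a protein of another kind, and was set aside, which left 36 P450 genes. RefSeq holds 225 symbols of this form, *CYP72C1* among them, and apart from *CYP72C1* the others had no probe set named for them alone here. All plants were Columbia wild type (Col-0), light-grown, 5 days old and handled whole. The mock group (2 arrays) lay in water for 2 h, and the IAA group (2 arrays) lay for 2 h in water that held 10 µM IAA, so both groups shared the immersion. The study describes its array experiments as independent biological replicates.

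P450 enzymes hold a heme iron that activates molecular oxygen and places 1 of its atoms on a small molecule, with electrons usually supplied by a reductase. Plants carry far more of these genes than animals do. The families numbered here take part in making and breaking down hormones, in the phenylpropanoid, glucosinolate and terpenoid pathways, and in the fatty acid chemistry of cuticle and suberin. Many members, above all of the large CYP71 family, lie in tandem arrays of similar genes and have no assigned substrate.

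Of the 36 P450 genes 3 were increased, 2 were decreased and 31 were not called, and the median change of the 36 lay near that of all probe sets. A gene was called at a limma adjusted p below 0.10 over all probe sets together with a log odds of differential expression (B) above 0. By this rule 1.48% of all probe sets were increased and 0.374% decreased, lower shares than among the P450 genes, of whose 5 calls 4 rest on names from a list chosen on these arrays. The median log2 change of the 36 genes was -0.03, between -0.19 and 0.20 at the lower and upper quartile. Over all probe sets it was -0.02, with quartiles at -0.15 and 0.12. Without the condition on B, 4 P450 genes were increased and 2 decreased, against 3.87% and 2.26% of all probe sets. In 10 P450 genes both IAA arrays exceeded both mock arrays, in 13 they lay below them, and in 13 the groups overlapped. Over all probe sets 24.5% lay entirely above and 29% entirely below. Seedlings were taken whole, so fewer cells that express a gene and less of its RNA per cell cannot be told apart.

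How a gene came to be named bears on these counts. The array's annotation named 22 of the 36 genes, the study's lists of brassinosteroid-regulated (BR) transcripts named 10 more, and its lists of auxin-regulated transcripts the last 4. Those auxin lists were chosen on these same arrays, and all 150 probe sets named only through them were called, 110 higher and 40 lower. The 4 P450 genes among them (*CYP81D8*, *CYP78A7* and *CYP96A1* higher, *CYP711A1* lower) are therefore no independent evidence of a direction. Of the 22 genes named by the annotation 0 were increased and 1 was decreased in limma, against 1.2% and 0.303% of all probe sets so named, and without B the counts were 1 and 1. Of the 10 named through the BR lists, 0 were called in limma with or without B. Of all BR-list probe sets 18.5% were increased and 0.896% decreased. The BR lists join transcripts raised and transcripts lowered by BR, and neither the 10 genes nor these shares were split by that direction. The shares are therefore only a rough measure for the 10 genes.

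**Figure D1:**
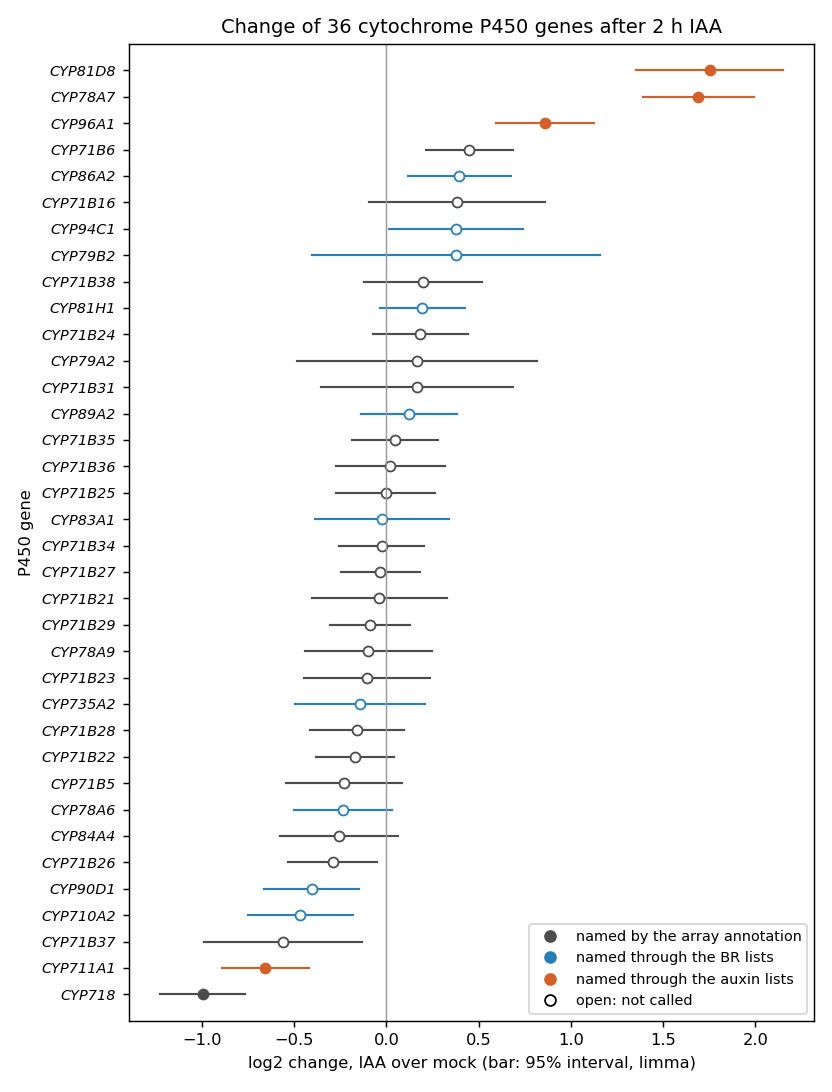
Log2 change of each of the 36 P450 genes, IAA over mock (x axis), with the 95% interval from limma over 2 arrays in each group as a bar. Filled points passed the call rule and open points did not, and colour gives the source of the gene's name. The increased genes *CYP81D8*, *CYP78A7* and *CYP96A1* and the decreased genes *CYP711A1* and *CYP718* stand at the ends, and the uncalled genes range from -0.56 to 0.45.

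*CYP81D8* (AT4G37370), a transcript known to rise under chemical stress and in response to karrikins, was increased. It read 69.8 and 93.9 in the mock arrays and 258 and 289 in the IAA arrays. Both IAA values were above both mock values, and the arrays within each group differed by far less than the groups did. The group means were 81.9 ± 17.0 and 274 ± 21.7 (SD, n = 2 in each group), a 3.37-fold increase (log2 change 1.75 ± 0.16 SE, limma adjusted p = 0.0077). It kept the call in all 10 other settings in which it was tested. Here and for the genes below, these settings include the fit without the condition on B, where a called gene cannot lose its call. The related *CYP81H1* (AT4G37310), a few genes away on the same chromosome, read 115 and 108 in mock and 124 and 132 after IAA. Its log2 change of 0.20 was not called (95% interval -0.04 to 0.43).

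*CYP78A7* (AT5G09970) belongs to the CYP78A subfamily, whose best known member, KLUH, promotes organ growth, and it acts together with KLUH at the shoot apex. It read 20.3 and 23.0 in mock and 75.6 and 64.4 after IAA, with no overlap. The mock values lay below 37.6, the highest single reading among 27 *Bacillus* controls on the arrays, used here as a cautious limit of background (the next highest control read 19.2). Against that limit the increase was at least 1.85-fold. The log2 change of the readings themselves was 1.69 ± 0.12 (SE, limma adjusted p = 0.00351), and it kept the call in all 9 other settings. The other subfamily members measured, *CYP78A6* and *CYP78A9*, promote seed and fruit growth. *CYP78A6* (mock 32.1 and 29.0, IAA 24.5 and 27.4) and *CYP78A9* (mock 36.9 and 28.7, IAA 29.8 and 30.9) read below the background limit in every array and were not called.

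*CYP96A1* (AT2G23180) comes from the family of the midchain alkane hydroxylase of stem wax. It read 41.6 and 42.5 in mock and 70.9 and 82.2 after IAA, a 1.82-fold increase (log2 change 0.86 ± 0.11 SE, limma adjusted p = 0.0205). The groups did not overlap, and the mock arrays were nearly equal. The call held in 5 of 9 other settings, among them that without the condition on B, which cannot remove a call. The limma adjusted p was 0.189 without mock replicate 1 and 0.159 without mock replicate 2, at log2 changes of 0.84 and 0.88. The call was also lost with a replicate block (limma adjusted p = 0.145) and with a pseudocount of 64 (0.063, B below 0). In the order of RefSeq genes *CYP96A1* is the direct neighbour of *GH3.3*, whose product conjugates free auxin with amino acids. *GH3.3* read 26.6 and 28.4 in mock and 4071 and 4053 after IAA. Among 72 pairs of a P450 gene and the gene next to it, 36 had a measured neighbour, and *GH3.3* was the only neighbour called in either direction. What part the neighbouring *GH3.3* transcript had in the readings of *CYP96A1* was not tested.

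**Figure D2:**
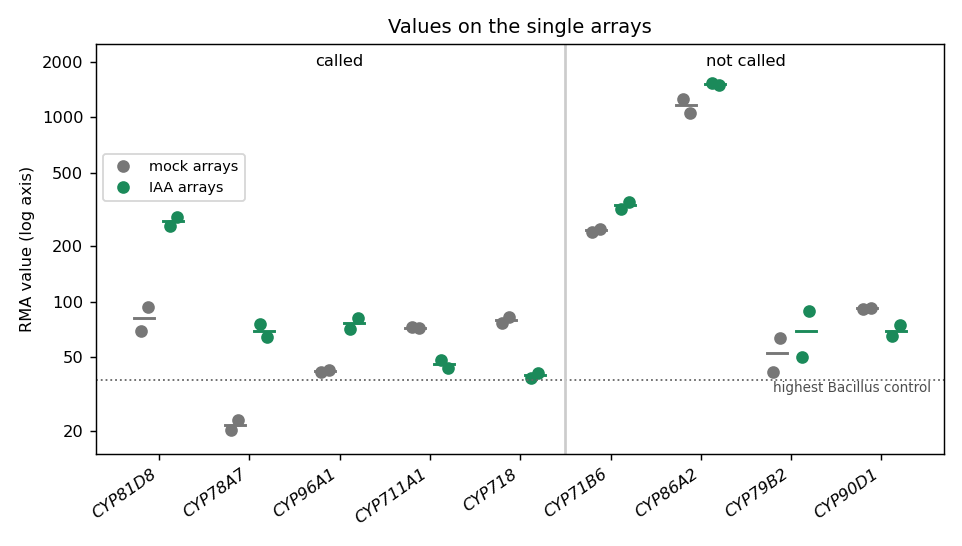
RMA values on the single arrays (y axis, log scale) of the 5 called P450 genes and of 4 that were not called, with mock arrays in grey, IAA arrays in green, short lines at the group means and a dotted line at 37.6, the highest *Bacillus* control. Groups separate in each called gene and in *CYP71B6*, *CYP86A2* and *CYP90D1*, and overlap in *CYP79B2*. Heights are not comparable between genes, since each probe set has its own response.

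The decreased genes were *CYP718* and *CYP711A1*. *CYP718* (AT2G42850), the single gene of its family and a member of the CYP85 clan with no assigned substrate, read 77.3 and 82.4 in mock and 38.9 and 41.1 after IAA. The groups did not overlap, and the IAA values lay just above the background limit. The decrease was 2.00-fold (log2 change -0.997 ± 0.09 SE, limma adjusted p = 0.00828). It is the one called P450 gene whose name came from the array's annotation. It kept the call in 8 of 9 other settings and lost it without mock replicate 2 (log2 change -0.95, limma adjusted p = 0.1003).

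*CYP711A1* (AT2G26170), also known as *MAX1*, encodes the oxidase that turns carlactone into precursors of strigolactones, the hormones that restrain shoot branching. It read 73.3 and 72.05 in mock and 48.3 and 44.1 after IAA, again without overlap. The decrease was 1.58-fold (log2 change -0.66 ± 0.09 SE, limma adjusted p = 0.0323) with B at 0.16, close to the limit of 0. The call held in 2 of 9 other settings, although the gene was lower after IAA in all 9. Of those 2 settings, that without the condition on B could not remove a call. Without mock replicate 1 the limma adjusted p was 0.256, without mock replicate 2 it was 0.199, and without IAA replicate 2 it was 0.0389 with B below 0.

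**Figure D3:**
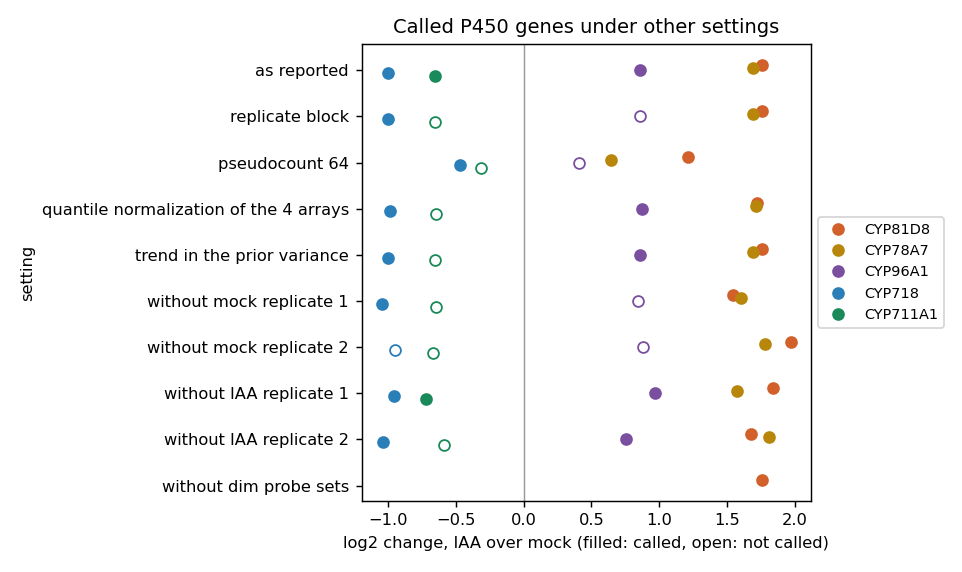
Log2 change (x axis) of the 5 called P450 genes as reported and in other settings (y axis), where filled points kept the call and open points lost it. *CYP81D8* and *CYP78A7* stayed called wherever they were fitted, and *CYP711A1* lost the call in 7 of the 8 settings drawn for it. With the dimmer probe sets left out only *CYP81D8* of these genes was still fitted.

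Genes of indole and glucosinolate metabolism were not called. *CYP71B6* (AT2G24180), which oxidizes indole-3-acetonitrile on the way to indole carboxylic acids, came nearest. It read 241 and 248 in mock and 319 and 349 after IAA, without overlap, and its log2 change of 0.45 ± 0.09 (SE) had a limma adjusted p of 0.079 with B below 0. *CYP79B2* (AT4G39950) converts tryptophan to indole-3-acetaldoxime, a precursor of indole glucosinolates and of auxin. It read 41.8 and 63.7 in mock and 50.6 and 89.02 after IAA, so the groups overlapped, and the arrays numbered 2 were the higher in both groups. Its log2 change of 0.38 had a 95% interval from -0.40 to 1.16, which spans a 2-fold increase. *CYP83A1*, which acts on aliphatic aldoximes, overlapped between groups (mock 59.8 and 78.8, IAA 66.4 and 68.7). *CYP79A2*, which starts benzyl glucosinolate synthesis, read below the background limit in every array.

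Other genes of the same route gave 0 calls among 6 measured of 22 listed, where 1.48% of all probe sets were increased and 0.374% decreased. Without the condition on B 1 of them was lower in limma, against 2.26% of all probe sets. That one was *MYB34*, a transcription factor of indole glucosinolate synthesis. It read 31.9 and 34.0 in mock and 19.4 and 23.0 after IAA (log2 change -0.64, limma adjusted p = 0.057), with every value below the background limit. Both group means lay near background in 4 of the 6 (*SOT17*, *MYB34*, *BCAT4* and *MAM1*), where a change could hardly be seen. *SOT17*, *SOT18*, *MYB34* and *MAM1* were named through the BR lists. The sulfotransferase *SOT18* had a log2 change of -0.48 and the glucosyltransferase *UGT74B1* one of 0.04. *ATR1* and *ATR2*, the reductases that hand electrons to P450 enzymes, had no named probe set.

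Apart from *CYP711A1*, the P450 genes of hormone and sterol metabolism were not called. *CYP90D1* (AT3G13730), which hydroxylates brassinosteroid precursors, read 92.1 and 92.3 in mock and 65.0 and 74.6 after IAA (log2 change -0.41 ± 0.10 SE, limma adjusted p = 0.117). *CYP710A2* (AT2G34490), a sterol C-22 desaturase, read 48.1 and 57.0 in mock and 37.1 and 38.7 after IAA (log2 change -0.47 ± 0.11 SE, limma adjusted p = 0.107). Its IAA readings lay at the background limit, 1 just below it and 1 just above. Neither gene overlapped between groups, but B was -2.91 for *CYP90D1* and -2.70 for *CYP710A2*. With 1 array left out the log2 change ranged from -0.50 to -0.31 for *CYP90D1* and from -0.59 to -0.34 for *CYP710A2*. With all arrays kept, the limma adjusted p of *CYP90D1* was 0.070 without dim probe sets and 0.093 with quantile normalization, still without a call. It was 0.122 with a pseudocount of 64, 0.141 with a trend in the prior variance and 0.276 with a replicate block. In such fits that of *CYP710A2* ranged from 0.117 (quantile normalization) to 0.248 (replicate block). *CYP94C1* (AT2G27690), which oxidizes the active jasmonate jasmonoyl-isoleucine, read 33.1 and 26.5 in mock and 35.4 and 41.9 after IAA (limma adjusted p = 0.226). All but 1 of these readings lay below the background limit. *CYP735A2*, which makes trans-zeatin type cytokinins, read below the background limit in every array.

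Among genes of surface lipids and other pathways, *CYP86A2* (AT4G00360), a fatty acid omega-hydroxylase of cutin synthesis, read 1258 and 1063 in mock and 1539 and 1505 after IAA. The groups did not overlap, and the log2 change of 0.40 ± 0.11 (SE) was not called (limma adjusted p = 0.14). *CYP89A2* overlapped between groups (mock 301 and 321, IAA 360 and 318), with a log2 change of 0.12 and a 95% interval from -0.14 to 0.38. *CYP84A4*, of the ferulate 5-hydroxylase family, read 42.4 and 34.9 in mock and 30.5 and 34.0 after IAA, with a log2 change of -0.26 and its IAA values below the background limit.

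The CYP71B subfamily supplied 18 of the 36 genes. None of the 18 was called by limma, and 1 of them, *CYP71B6*, passed without the condition on B. Over all probe sets 1.48% were increased and 0.374% decreased, and 3.87% and 2.26% without B. At such shares few calls are to be looked for among 18 genes. The median log2 change of the 18 was -0.03, and they ranged from -0.56 for *CYP71B37* to 0.45 for *CYP71B6*. Both group means lay at or below the background limit in 9 of the 18. A tandem array held 11 of them, from AT3G26150 to AT3G26330, where RefSeq lists 20 protein-coding genes and 16 of these as CYP71B. Of those 11 genes 4 were above 0 and 7 below 0 in log2 change, and the arrays overlapped in 6. Of all 22746 probe sets 10621 were above 0 and 12125 below 0, and the arrays overlapped in 10578. Both group means lay near background in 6 of the 11 tandem genes, and for these a sign carries little weight.

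Within that tandem array, *CYP71B26* (AT3G26290) read 388 and 376 in mock and 296 and 329 after IAA. Its log2 change of -0.29 (95% interval -0.53 to -0.05) was not called (limma adjusted p = 0.183). The next genes in line, *CYP71B34* (mock 93.6 and 101, IAA 94.6 and 96.6) and *CYP71B35* (mock 51.2 and 49.7, IAA 54.6 and 49.8), overlapped between groups. *CYP71B37* (AT3G26330) had the lowest log2 change of all uncalled P450 genes, -0.56, but its readings of 28.2 and 33.0 in mock and 24.2 and 17.7 after IAA all lay below the background limit. Elsewhere in the genome, the adjacent *CYP71B28* and *CYP71B29* had log2 changes of -0.16 and -0.09, *CYP71B5* had -0.23, and *CYP71B27*, which RefSeq annotates as a transcribed pseudogene, had -0.03.

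**Figure D4:**
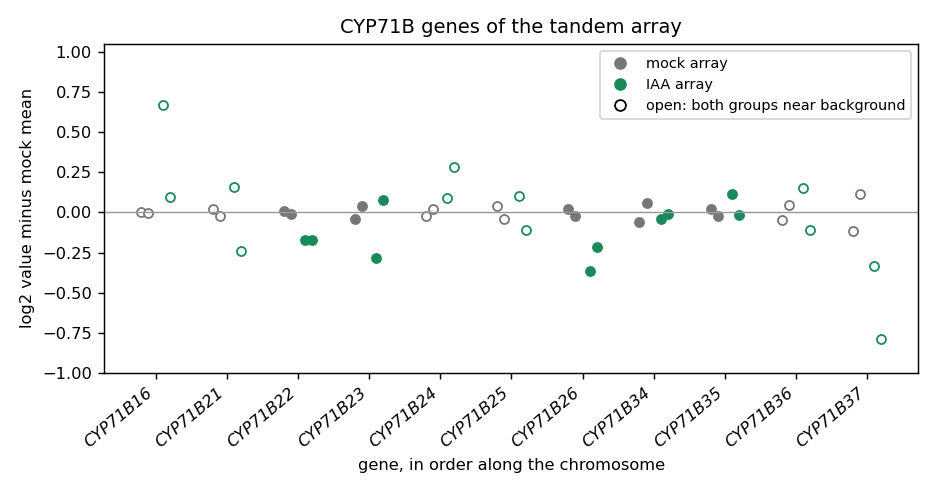
Log2 value on each array minus the mean of the mock arrays (y axis) for the 11 measured CYP71B genes of the tandem array, in chromosomal order (x axis), with mock arrays in grey and IAA arrays in green. Open points mark genes whose group means both lay near background. No gene of the array was called. Both IAA arrays lay below both mock arrays in *CYP71B22*, *CYP71B26* and *CYP71B37*, and above them in *CYP71B16* and *CYP71B24*. Of these, *CYP71B37*, *CYP71B16* and *CYP71B24* are drawn open. Over all probe sets 29% lay entirely below and 24.5% entirely above.

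By clan, the broad branches into which P450 families are grouped, the CYP71 clan held 28 of the 36 genes, with 2 increased and 0 decreased by limma, and 3 and 0 without B. The CYP86 clan held 3 genes (*CYP96A1*, *CYP86A2* and the dim *CYP94C1*), and in each of them the IAA arrays exceeded the mock arrays without overlap, with 1 called. The CYP85 clan held *CYP718* and *CYP90D1*, and both lay lower after IAA, with 1 called. The increased genes of these clans were all named through the auxin lists, where all 150 probe sets were called, so naming fixed their calls. Over all probe sets 1.48% were increased and 0.374% decreased (3.87% and 2.26% without B). In 24.5% of all probe sets both IAA arrays exceeded both mock arrays, and in 29% they lay below them. With so few members the clans were described and not compared.

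Some P450 genes, most of them under other names, fall outside the symbol rule. Of 21 such genes listed, 7 were measured and 1 was called, *BAS1*, whose product inactivates brassinosteroids. All 7 were named through the study's BR lists. Of all probe sets so named, raised and lowered by BR together, 18.5% were increased and 0.896% decreased. *BAS1* read 77.9 and 82.4 in mock and 364 and 392 after IAA (4.71-fold, limma adjusted p = 0.000546). *ROT3*, which acts redundantly with *CYP90D1*, read 141 and 135 in mock and 96.2 and 93.6 after IAA (log2 change -0.54, limma adjusted p = 0.044, B below 0). *CYP72C1*, which like *BAS1* lowers brassinosteroid activity, read 121 and 107 in mock and 164 and 194 after IAA (log2 change 0.65, limma adjusted p = 0.0626, B below 0). *CYP90D1* and *ROT3* thus both lay lower after IAA in every array and both stayed uncalled. Of the other genes measured, *CPD* (log2 change -0.33) and *DWF4* (-0.15) lay lower without overlap. *AOS* (0.26) lay higher without overlap, and *BR6OX2* (-0.09) overlapped between groups. None of these was called.

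Genes of the auxin response, of handling and of roots were read in the same arrays. All 4 auxin-response genes listed rose, 2 of them (*IAA1* and *IAA19*) named through the auxin lists. *IAA19* had a log2 change of 3.73, and *GH3.3*, with its mock readings below the background limit, rose at least 108-fold. Of 8 genes that respond to touch and handling 6 were measured and 5 were called higher, 2 of these named through the auxin lists. *TCH2*, *TCH4* and *WRKY40* were named through the BR lists, of whose probe sets 18.5% were increased. All 5 stand in the auxin lists, which were chosen on these arrays. *ZAT10*, named by the annotation, lay higher without overlap (log2 change 0.85) and was not called. The values of the 6 summed to 3587 and 3269 in mock and to 5776 and 6403 after IAA. To these sums *TCH4* alone gave 2638 and 2350 in mock and 3959 and 4388 after IAA. Of 6 root genes 5 were measured and 2 were called lower, *CASP5* (named through the BR lists) and *TIP2;3* (named through the auxin lists). Both stand in the auxin lists, and 0.374% of all probe sets were decreased. The other 3 were not called, at log2 changes of -0.40 (*EXPA7*), -0.09 (*PYK10*) and 0.11 (*PRX72*), and the last pair overlapped between groups. Without the condition on B *EXPA7* was lower as well (limma adjusted p = 0.092), against 2.26% of all probe sets. The summed values of the 5 root genes were 3534 and 4227 in mock and 3518 and 3001 after IAA, to which *PYK10* gave most. Of 6 photosynthesis genes 2 were measured and 0 were called, at log2 changes of -0.20 (*PRK*) and -0.01 (*RCA*). What part handling or root tissue had in the changes of *CYP81D8*, *CYP78A7*, *CYP96A1*, *CYP718* and *CYP711A1* was not tested.

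**Figure D5:**
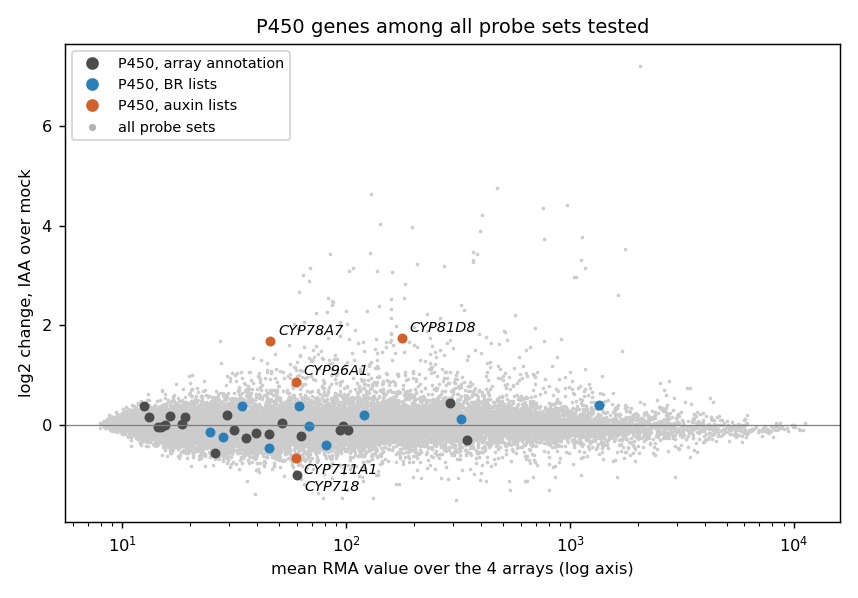
Log2 change, IAA over mock (y axis), against the mean RMA value over the 4 arrays (x axis, log scale) for all 22746 probe sets in grey and the 36 P450 genes in colour by the source of their name. The uncalled P450 genes lie within the grey band, and the called genes *CYP81D8* and *CYP78A7* reach log2 changes of 1.75 and 1.69 while the topmost grey point is *GH3.3*, whose mock readings lay below the background limit.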

How the data were processed

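The deposited values are linear-scale intensity summaries of probe sets, made by the authors from Affymetrix arrays with rma of the Bioconductor affy package (background correction, quantile normalization, probe-set summary). Its version and the arrays normalized together are not given in the sources used here. Array medians lay between 62.2 and 63.5, and the number of arrays limits the precision. Values were taken to log2 without pseudocount. After 64 control probe sets were left out of 22810, limma 3.58.1 (R 4.3.3; lmFit, eBayes) was run with treatment as the only term and Benjamini-Hochberg adjustment over 22746 probe sets. The call rule is that of the study's methods.

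Names came from the platform's annotation, updated through RefSeq (assembly TAIR10.1), for 13513 probe sets, from the study's BR lists for 335 and from its auxin lists for 150 (identity only). Another 503 had several genes and 8245 stayed unnamed. All 36 probe sets used carry the suffix of a design unique to 1 gene. No genome was used, so no coordinates are given.

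The members, lists and tests were chosen with earlier results of these data known. Named genes were the called members, the member of each role list with the largest absolute change and a group mean of at least 37, the 5 largest uncalled changes with a group mean of at least 62.9, and the 5 highest means. Further genes were named after their values were seen. The fit was tested on simulated data. Alternatives were a replicate block, each array left out, a pseudocount of 64, no dim probe sets, quantile normalization of the 4 arrays, a trend in the prior variance, no condition on B, platform names alone, every matching probe set and, added after the data were seen, a crossed block.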

Additional observations from a re-analysis of the deposited data

How the results depend on the processing

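The count of 3 increased P450 genes ranged from 2 to 3 when 1 array was left out, and that of 2 decreased genes from 0 to 2. The median log2 change ranged from -0.0614 to 0.0131 in those fits. Without dim probe sets 11 of the 36 genes were fitted, with 1 increased and 0 decreased. With platform names alone (22 genes) 0 were increased and 1 decreased. A pseudocount of 64, quantile normalization of the 4 arrays and a trend in the prior variance each gave 1 decreased gene, with 2, 3 and 3 increased. With the replicate block 2 were increased and 1 decreased, where *CYP96A1* (limma adjusted p = 0.145) and *CYP711A1* (0.178) lost their calls. The sample titles number the arrays and do not say whether arrays with the same number were handled together. Their deviations from the group means correlated at -0.19 across probe sets. With 2 arrays in each group the deviations mirror each other, so this value cannot show whether the arrays were paired. With the pairs crossed, an alternative added after the data were seen, 3 were increased and 1 decreased. Of 142 values for 15 named genes in other fits, 127 kept direction and side of the threshold, 12 lost the call, 1 gained it (*CYP71B6* without the condition on B) and 2 changed sign, both in uncalled genes: *CYP83A1*, which ranged from -0.22 to 0.17 (without mock replicate 1 and 2), and *CYP79B2*, which ranged from -0.0289 to 0.786 (without IAA replicate 2 and 1). Counts of kept calls include the fit without the condition on B, which cannot remove a call. Of the 36 genes 13 had both group means near background and were not called in either direction.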

Other observations

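Outside the 36 genes, the cyclophilin gene *CYP71* read 68.5 and 73.5 in mock and 68.6 and 68.8 after IAA, a log2 change of -0.05 (95% interval -0.27 to 0.18). *CYP71B30P*, named as a pseudogene and adjacent to *CYP71B5*, read between 13.4 and 15.4 in every array, below the background limit.

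The IAA arrays were not alike among dim P450 genes. Of the 13 with both group means near background, 10 read higher in IAA replicate 1 than in IAA replicate 2, among them *CYP71B16* (17.1 and 11.5), *CYP79A2* (26.0 and 14.8) and *CYP71B31* (17.1 and 10.97). Of the 19 with both means above the limit 4 did. The mock arrays leaned the same way, with 9 of 13 and 7 of 19 higher in mock replicate 1. Over all probe sets the shares were 52.7% of 8498 near background and 45.7% of 13389 above it for the IAA arrays, and 61.6% and 45.6% for the mock arrays.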
